A study of Homo sapiens with 34 samples.

Results

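The 10 human genes described here are MDM4, USP54, HECW1, LRRTM3, EIF2AK4, MCPH1, KAT6B, WWC2, KLHL28 and SIK3. They were chosen from 19974 protein-coding genes on the autosomes and the X chromosome because peaks of a histone mark recurred at them in libraries of the line PC3 DM and were rare at them in libraries of COLO320 DM. A peak was counted for a gene when it touched the gene or the 2 kb on either side, on the hg38 build with RefSeq gene positions. Since presence in one line and absence in the other chose the genes, that difference is given as a description and is not tested.

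The mark was measured by CUT&Tag, in which an antibody bound to chromatin directs a transposase to cut and tag the DNA next to it. The antibody was raised against methylated lysine 9 of histone H3, and the degree of methylation it recognises is not given in the labels. The lines are PC3 DM, a prostatic adenocarcinoma, and COLO320 DM, a colorectal one, and both carry amplified DNA outside the chromosomes. All groups received 700 ng of an sgRNA plasmid, were collected after 3 days and gave 50000 nuclei per library. In PC3 DM the plasmids were the vector in 2 libraries, ecSE1, ecSE2 and ecSE6 in 3 libraries each, ecSE7 in 2 and the combination ecSEcombo in 3. In COLO320 DM they were the vector, ecSE1, ecSE2, ecSE3, ecSE4 and ecSEcombo, with 3 libraries each. The labels give neither the sequences targeted nor the effector protein, and do not say whether replicates were separate cultures. All p-values below therefore measure only how these libraries vary, which may be technical.

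Methylation of lysine 9 on histone H3 is written by enzymes such as SETDB1, SUV39H1 and EHMT2 and is read by proteins of the HP1 family. The di- and trimethylated forms are best known from silent chromatin, above all at repeats and at clusters of zinc finger genes, while the monomethylated form also occurs within active genes. The members share no single pathway. MDM4 is a RING finger protein related to the ubiquitin ligase MDM2. USP54 belongs to the ubiquitin-specific proteases, and HECW1 is a ubiquitin ligase of the HECT type. EIF2AK4, also called GCN2, is the kinase that slows translation when amino acids run short, and SIK3 is a salt-inducible kinase. KAT6B is a histone acetyltransferase, MCPH1 (microcephalin) acts in chromosome condensation and the response to DNA damage, WWC2 is a scaffold of the Hippo pathway, LRRTM3 is a synaptic adhesion protein and KLHL28 is a kelch-like protein.

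The lists held from 10288 to 102286 peaks in the 16 PC3 DM libraries (median 26526.5) and from 9385 to 125213 in the 18 COLO320 DM libraries (median 18271). The longest lists were those of PC3 DM ecSEcombo replicate 1 and COLO320 DM ecSE1 replicate 2. Read totals are unknown. The lowest local background that could be recovered per list, which rises with depth, was 0.178 to 0.405 fragments in PC3 DM and 0.501 to 0.872 in COLO320 DM, so it did not overlap between the lines. The peak names place the libraries of each line in library series of their own, so line and library series cannot be told apart. No pair of lists of a line shared more than 0.208% of its peaks exactly, so no library looked deposited again.

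Peaks were present at the 10 genes in 151 of 160 pairs of gene and PC3 DM list (94.4%), and in 14 of 180 pairs in COLO320 DM (7.78%). Each PC3 DM list marked 7 to 10 of the genes, and 11 of the 16 lists marked all 10. Of the 14 pairs in COLO320 DM, 8 came from ecSE1 replicate 2, the longest list, and 6 of 170 pairs remained without it. The other COLO320 DM lists with a peak were ecSE4 replicate 1, with KAT6B and MCPH1, and ecSE4 replicate 3, ecSE3 replicate 3, ecSE2 replicate 3 and vector replicate 2, with MCPH1, KLHL28, HECW1 and WWC2. The share of all genes with this pattern was small: 36 of 19974 (0.18%) had peaks in 14 or more PC3 DM lists and in 3 or fewer COLO320 DM lists, and all 10 genes are among them by their choice. By Fisher's exact test with adjustment over 10067 genes, 5.74% of genes were marked more often and 1.25% less often in PC3 DM, which is the background against which the genes were chosen.

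**Figure D1:**
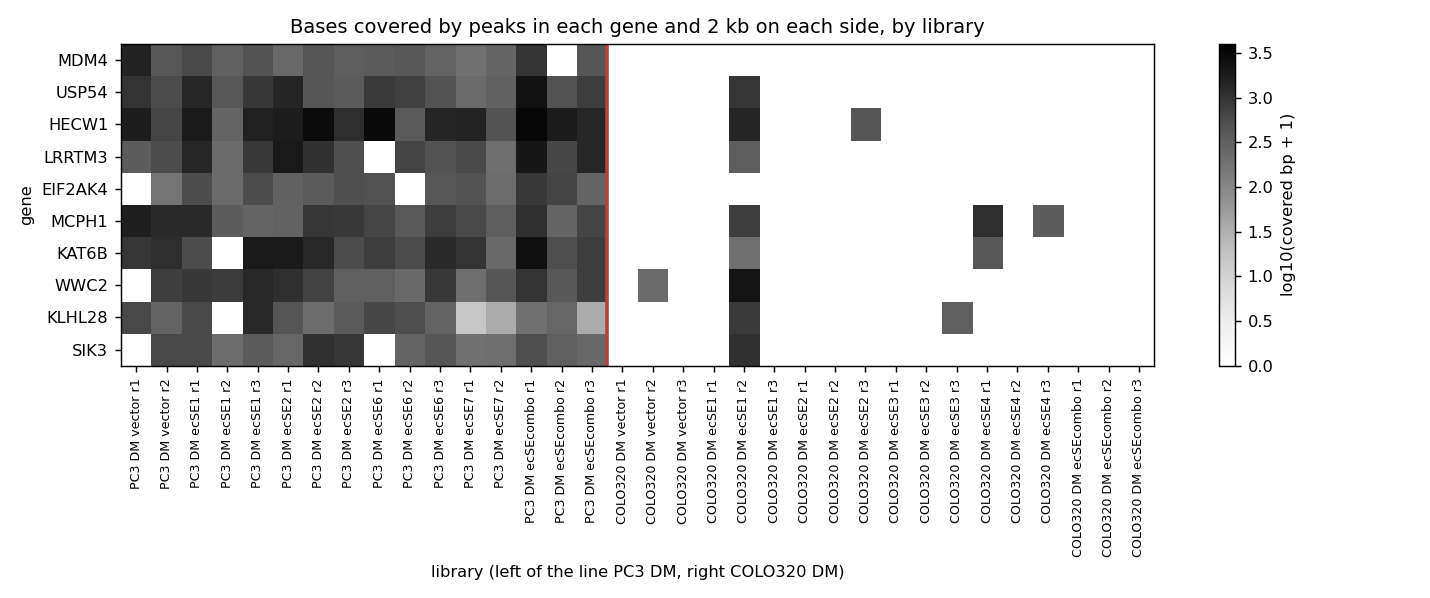
Bases covered by peaks in each of the 10 genes and 2 kb on each side (rows), in each library (columns, r for replicate), as log10 of bp plus 1. The 16 PC3 DM libraries left of the red line are covered in 151 of 160 cells, and 8 of the 14 covered COLO320 DM cells are in ecSE1 replicate 2.

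The genes differed in how their peaks were placed. For each gene, the largest number of PC3 DM lists with a peak at 1 and the same base was counted. It was 14 of 16 at USP54, 13 at MDM4 and at KLHL28, and 11 at MCPH1. It was 7 at HECW1, 5 at WWC2, 3 at EIF2AK4 and KAT6B, 2 at LRRTM3 and 1 at SIK3. The first 4 genes had a base in 8 or more lists, called a shared site here, and the other 6 did not. With peaks that touch joined into 1 place, HECW1 and WWC2 also reached 8 lists. Among all protein-coding genes 489 of 19974 (2.45%) had a base in 8 or more lists. Among the 36 genes with the same pattern of lists 7 did, and the 3 that are not members are DHX32 and HHIPL1, each with a base in 13 lists, and PIP4P2, with a base in 9. The median over the 36 genes was 3.5 lists, over the 10 members 6 and over all genes 1. None of the 10 most shared bases lay in a peak of any of the 18 COLO320 DM lists, although a COLO320 DM peak ended just before that of WWC2. The genes were chosen for few COLO320 DM lists, so this absence was close to fixed by their choice. Where several stretches tied, as the 25 of SIK3 in 1 list each, the first by position was taken.

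**Figure D2:**
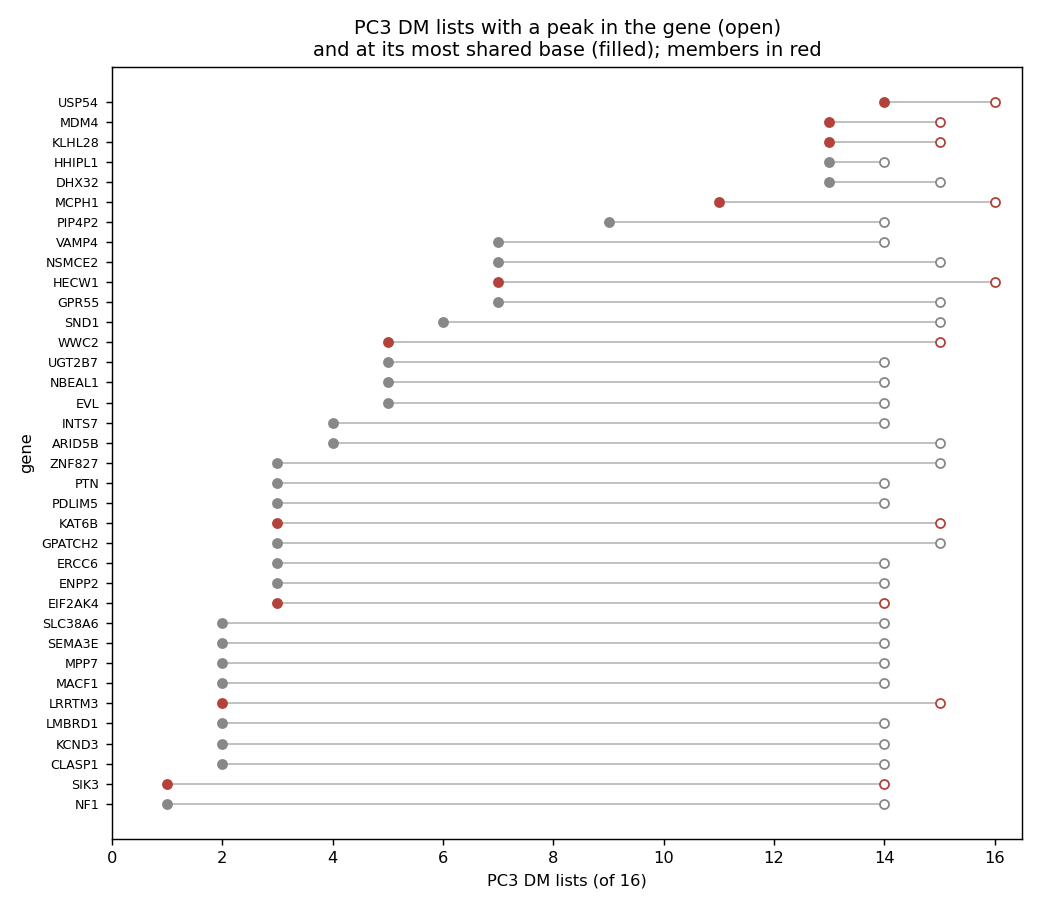
PC3 DM lists (of 16, horizontal axis) with a peak anywhere in the gene and 2 kb on each side (open circles) and at the most shared base (filled circles), for the 36 genes with peaks in 14 or more PC3 DM and 3 or fewer COLO320 DM lists. Members are in red: USP54, MDM4, KLHL28 and MCPH1 lie at 11 to 14 shared lists and SIK3 at 1.

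MDM4 lies on the plus strand at chr1:204516406-204558120 (41715 bp) and had 22 peaks in 15 PC3 DM lists and none in COLO320 DM. Of the 22 peaks, 19 lay in the third of the gene nearest to its start, 1 in the third in the middle and 2 in the third nearest to its end, and none within 1 kb of a listed start. The shared site was the stretch chr1:204523789-204524080 (292 bp), reached by peaks of 13 lists, and the base they most shared lay 7555 bp after the start, inside the gene. Exons were not given, so whether it is exonic or intronic is not stated.

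At the MDM4 site the fold of the summit over the local background was 5.95 and 7.69 in the vector libraries. This fold is as the authors' peak caller gave it, with 1 fragment added to summit and background. It was 7.08, 7.13 and 7.93 with ecSE1, 6.74 and 7.20 in replicates 2 and 3 with ecSE2, and 6.09, 7.31 and 6.66 with ecSE6. It was 9.43 in ecSE7 replicate 1, and 10.0 and 8.45 in ecSEcombo replicates 1 and 3. The 13 values ran from 5.95 to 10.0 (median 7.20), where the medians of whole PC3 DM lists ran from 4.93 to 5.61. Values with the vector, ecSE1, ecSE2 and ecSE6 overlapped, while the combination and the single ecSE7 value lay above all of them, a difference in fold that was not tested. The missing libraries were ecSE2 replicate 1, ecSE7 replicate 2 and ecSEcombo replicate 2, so no plasmid lacked the site in all of its libraries. In ecSE2 replicate 1 and ecSE7 replicate 2 the gene had peaks elsewhere, and ecSEcombo replicate 2 had none.

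The number of fragments piled up at the MDM4 summit was 12 to 36 (median 26), over a local background of 0.836 to 4.59 fragments (median 2.68). That background was a median of 9.62 times the lowest in the same list. By their q-value the peaks at this site stood above a median of 95.0% of the peaks in their list (86.8% to 99.1%). Summits lay within 304 bp of one another (SD 66.9 bp), and peaks were 163 to 731 bp wide.

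USP54 lies on the minus strand at chr10:73497538-73625981 (128444 bp) and had 45 peaks in all 16 PC3 DM lists. Its shared stretch was chr10:73585295-73585588 (294 bp), with peaks of 14 lists, inside the gene and 31.6% of the way from its outermost start. The most shared base lay 5903 bp after an internal listed start. Outside this site the peaks were scattered: the 45 peaks fell on 28 separate places, 24 of them seen in 1 list only.

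Vector libraries gave folds of 5.94 and 5.24 at the USP54 site. The ecSE1 libraries gave 8.04 and 11.0 in replicates 1 and 2, the ecSE2 libraries 5.11 and 9.00 in replicates 1 and 2, and the ecSE6 libraries 5.53, 5.85 and 12.7. The ecSE7 libraries gave 10.3 and 7.21, and the combination 6.64, 6.04 and 10.3. The 14 folds ran from 5.11 to 12.7 (median 6.92), and the ecSE6 libraries alone spanned 5.53 to 12.7. The lists without the site were ecSE1 replicate 3 and ecSE2 replicate 3.

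At the USP54 summit 18 to 57 fragments were piled up (median 31), over a local background whose median was 12.5 times the lowest in the list. Edges recurred to the base: 5 lists began the peak at position 73585365 and 6 ended it at position 73585588. Of 854 stretches shared by 11 or more PC3 DM lists over the genome, 39 (4.57%) had an edge common to 6 or more lists, and the median was 3 lists. At MDM4 3 lists shared a start, and at MCPH1 and KLHL28 no edge was common to more than 2 lists. In COLO320 DM the gene had 5 peaks, all in ecSE1 replicate 2 and none at this site.

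**Figure D3:**
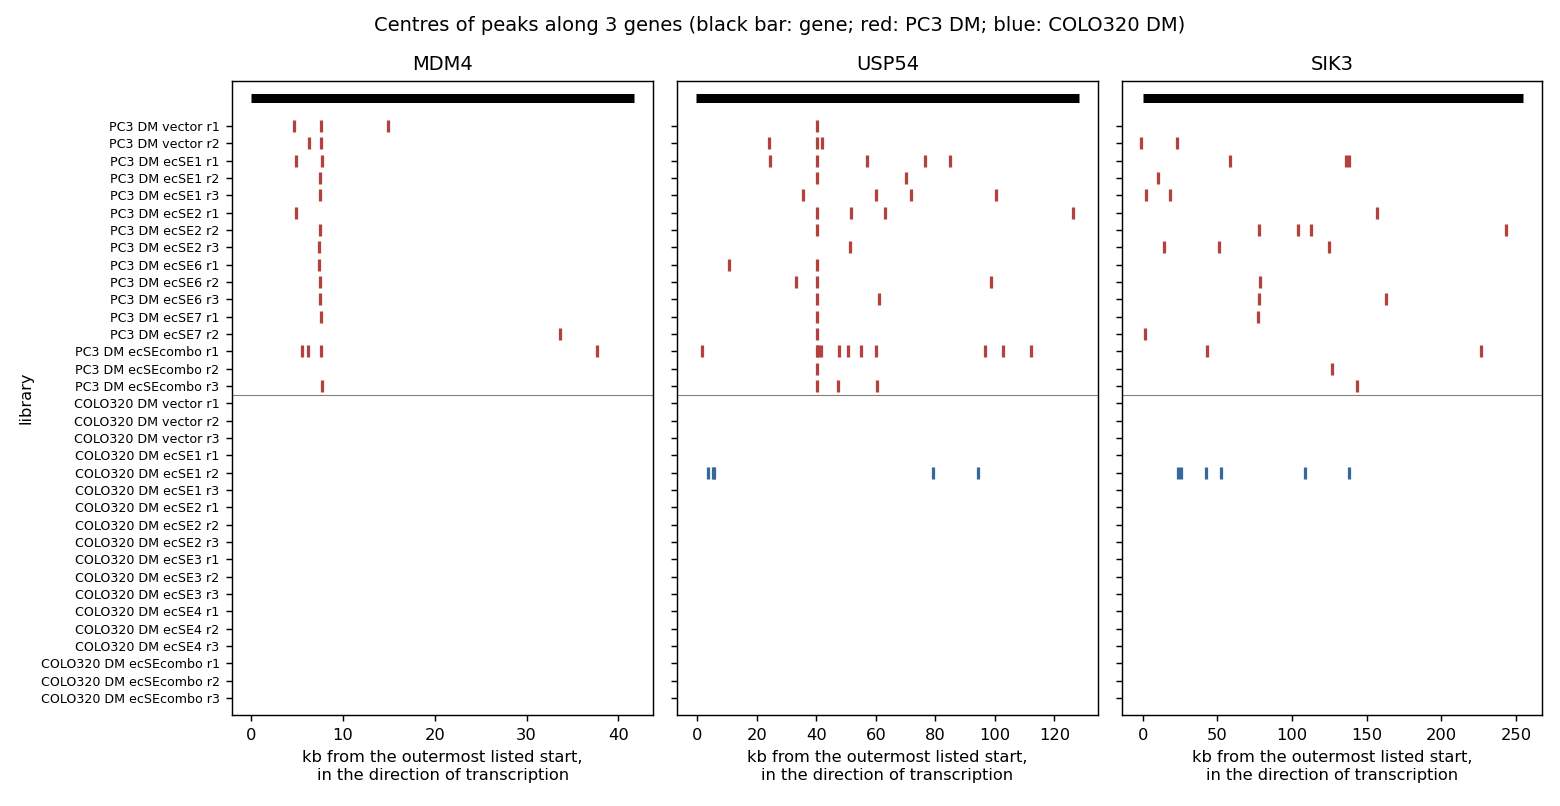
Peak centres along MDM4, USP54 and SIK3 (horizontal axis, kb from the outermost listed start in the direction of transcription), with 1 row per library and a black bar for the gene. Peaks of 13 and 14 PC3 DM lists line up in MDM4 and USP54, and the 25 PC3 DM peaks of SIK3 fall on 25 places.

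The listed starts of the genes were mostly outside the peaks. RefSeq sequences of the 250 bases before a start (GRCh38.p14) were at hand for 15 starts of 9 of the genes, all but MCPH1. Of these 15 windows, 11 overlapped no PC3 DM peak and none overlapped a COLO320 DM peak. Over the genes, 10 of 414 PC3 DM peaks came within 1 kb of a listed start. The 414 include 36 peaks of MCPH1, for which no start was at hand, so these could not be counted as near one. Peaks covered little of any of the genes, and no share over other windows was counted. These counts therefore do not show that starts were spared. Shown are 1 window for each of 3 of the 4 genes with a shared site, as MCPH1 had none at hand, and the window of KAT6B that was marked most often. Each runs 5′ to 3′ on the gene's own strand, and capitals mark CG, the dinucleotide at which DNA itself is methylated.
MDM4: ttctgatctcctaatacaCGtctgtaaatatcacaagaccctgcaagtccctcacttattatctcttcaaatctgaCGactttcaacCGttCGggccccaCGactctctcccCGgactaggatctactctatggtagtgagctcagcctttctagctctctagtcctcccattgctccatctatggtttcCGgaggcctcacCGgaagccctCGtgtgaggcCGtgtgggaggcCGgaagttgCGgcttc
USP54: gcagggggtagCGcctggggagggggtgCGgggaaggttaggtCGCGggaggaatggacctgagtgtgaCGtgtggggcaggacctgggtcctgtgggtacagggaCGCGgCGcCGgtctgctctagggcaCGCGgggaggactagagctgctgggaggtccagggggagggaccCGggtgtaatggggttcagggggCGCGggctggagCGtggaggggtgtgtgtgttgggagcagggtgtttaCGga
KLHL28: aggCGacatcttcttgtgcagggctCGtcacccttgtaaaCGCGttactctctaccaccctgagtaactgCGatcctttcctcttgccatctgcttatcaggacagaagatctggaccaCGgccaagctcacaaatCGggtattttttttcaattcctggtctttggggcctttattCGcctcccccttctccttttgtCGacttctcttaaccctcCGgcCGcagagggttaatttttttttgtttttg
KAT6B: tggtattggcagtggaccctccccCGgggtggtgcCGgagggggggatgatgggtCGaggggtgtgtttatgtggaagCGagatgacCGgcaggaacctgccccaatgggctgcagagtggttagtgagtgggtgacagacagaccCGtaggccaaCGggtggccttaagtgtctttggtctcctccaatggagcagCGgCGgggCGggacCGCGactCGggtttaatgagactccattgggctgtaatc
The MDM4 window is chr1:204516156-204516405 on the plus strand, with 12 CG and 52.8% G and C, and no list had a peak in it. That of USP54 is chr10:73625642-73625891 on the minus strand, before the outermost start, with 16 CG and no peak. That of KLHL28 is chr14:44961486-44961735 on the minus strand, with 11 CG and no peak. The KAT6B window, chr10:74826350-74826599 on the plus strand, lies before the innermost of its 3 listed starts, holds 13 CG and was touched by peaks of vector replicate 1, ecSE1 replicate 3 and ecSE6 replicate 1. The motif searched was CG, which reads the same on both strands. It occurs in 93.9% of the 35116 windows of the same length in the table, with a median of 11 per window, against 11 to 16 in the 4 windows shown and 1 to 35 over all 15. The other 3 windows of USP54, before internal starts, hold 1 or 2 CG each. That at chr10:73601622-73601871 was touched by a peak of PC3 DM vector replicate 2.

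KLHL28 lies on the minus strand at chr14:44924324-44961947 (37624 bp), and its shared site was beside the gene. The stretch chr14:44963816-44964298 (483 bp) held peaks of 14 lists. It lay 2331 bp before the start at position 44961485 that the promoter table lists for KLHL28, which is inside the gene span given here, and within TOGARAM1, a gene of the cilium that begins 705 bp from that start and is read in the other direction, 1626 bp after the start of TOGARAM1. The site counts for KLHL28 only through the 2 kb added to the gene span, which peaks of 13 lists entered, by as little as 15 bp in ecSE7 replicate 1 and 35 bp in ecSE7 replicate 2 and ecSEcombo replicate 3. The peak of ecSEcombo replicate 1 lay wholly beyond it. Of the 27 PC3 DM peaks, 14 were before the start and 13 within the gene. Without the 2 kb on each side, peaks were found at KLHL28 in 9 of 16 PC3 DM lists instead of 15.

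Folds at the site beside KLHL28 ran from 4.28 to 7.91 (median 5.59), the lowest median of the 4 sites. Its 25 to 60 fragments at the summit (median 31.5) stood over the highest local background of the 4 sites, a median of 19.6 times the lowest in the list. The lists without it were ecSE1 replicates 1 and 2. TOGARAM1 had peaks in all 16 PC3 DM lists and in 11 COLO320 DM lists, yet none of the COLO320 DM peaks was at this stretch.

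MCPH1 lies at chr8:6406627-6648508 (241882 bp), and its shared site was also outside the gene. The stretch chr8:6649147-6649543 (397 bp) lay 639 bp beyond the upper end of MCPH1, inside the noncoding gene MCPH1-AS1. Peaks of 14 lists reached it, 11 of them at 1 base. Folds there ran from 5.02 to 10.4 (median 8.39), the highest median of the 4 sites, on the fewest fragments, 10 to 28 (median 18.5). Its local background was a median of 5.60 times the lowest in the list, the least raised of the 4. The lists without it were ecSE2 replicate 3 and ecSE6 replicate 1. Of 36 PC3 DM peaks at MCPH1, 16 were beyond this end and 20 were spread along the gene, and without the 2 kb on each side 10 of 16 PC3 DM lists had a peak instead of 16.

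**Figure D4:**
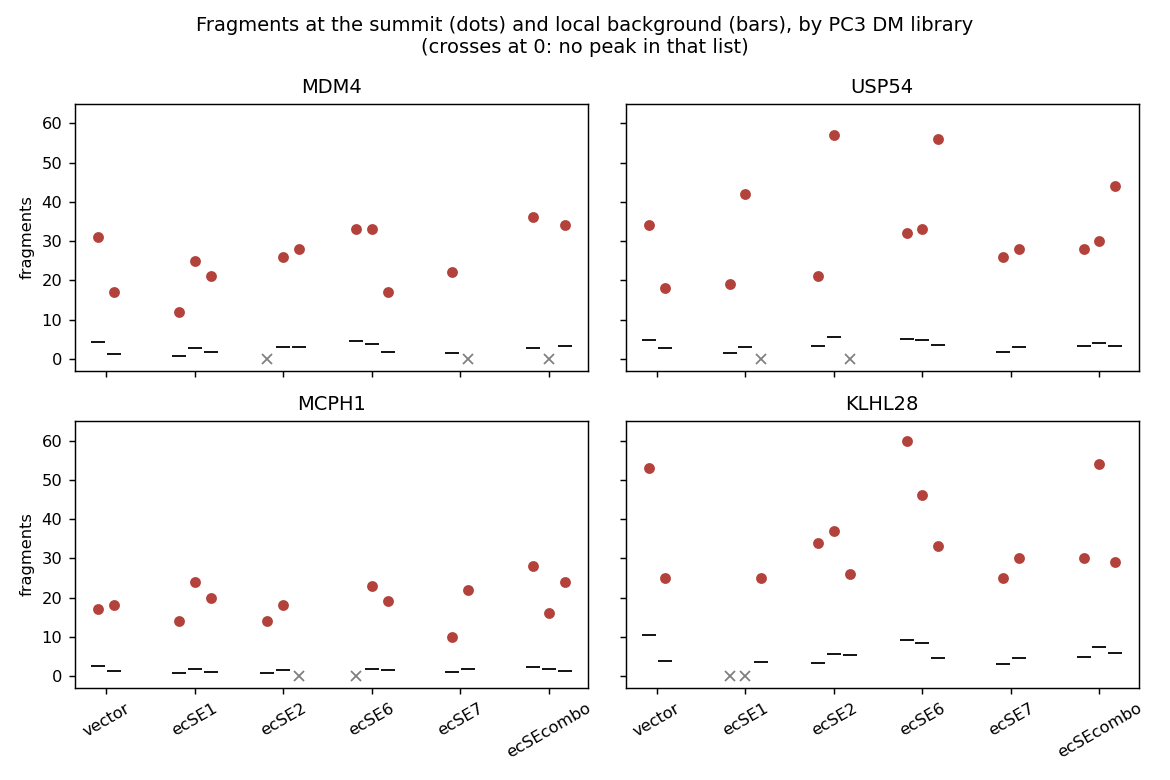
Fragments at the summit (dots) and local background (bars) at the shared sites of MDM4, USP54, MCPH1 and KLHL28 in each PC3 DM library, by plasmid, with replicates from left to right. Crosses at 0 are libraries without a peak at the site: 3 at MDM4 and 2 at each of the others.

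Sites shared this widely and absent from COLO320 DM were a minority in the genome. Of 2444 stretches in 8 or more PC3 DM lists, 249 (10.2%) lay in no COLO320 DM list, and of 438 stretches in 13 or more PC3 DM lists, 35 (7.99%) did. The sites at MDM4, USP54, MCPH1 and KLHL28 are among the 249, and they belong to genes picked for the contrast of the lines.

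The other 6 genes carried peaks in most PC3 DM lists but at changing places. HECW1, the longest member (chr7:43112647-43566001, 453355 bp), had 84 peaks on 69 places, 62 of them in 1 list only. Its most shared base, 178597 bp after the start and 39.4% of the way along, was in 7 lists. Its peaks there joined into a place reached by 8 lists. WWC2 (chr4:183099257-183320777) had 40 peaks on 29 places, with 5 lists at 1 base 79.4% of the way along and 8 lists at the joined place around it. COLO320 DM ecSE1 replicate 2 had a peak at that place too, with a fold of 11.6, the highest COLO320 DM fold at any of the 10 genes, and it overlapped peaks of 4 PC3 DM lists. Both genes thus had a concentration at 1 place within a scatter.

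EIF2AK4 (chr15:39934115-40035591) had 22 peaks on 17 places in 14 PC3 DM lists, 11 of them in the third farthest from the start, and none in COLO320 DM. Its most shared base, in 3 lists, was 79.1% of the way along. KAT6B (chr10:74824936-75032624) had 63 peaks on 58 places, and the only stretch shared by 3 lists, chr10:74826224-74826452, was the one that touches the window shown above, 262 bp before a listed start.

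LRRTM3 (chr10:66926036-67101551) had 50 peaks on 47 places and no base in more than 2 lists. It lies inside the much longer CTNNA3, the gene of a catenin, which had peaks in all 16 PC3 DM and all 18 COLO320 DM lists and a base in 16 PC3 DM lists, so a peak at LRRTM3 is also a peak at CTNNA3. SIK3 (chr11:116843402-117098428) was the most scattered: its 25 peaks in 14 PC3 DM lists fell on 25 places, 13 of them in the third nearest to the start.

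Scattered peaks were fewer in lists of equal length. When every list was cut to its best 9385 peaks, the number in the shortest list, PC3 DM lists with a peak at SIK3 went from 14 to 4, at EIF2AK4 from 14 to 5, at KAT6B from 15 to 7, at LRRTM3 from 15 to 8 and at WWC2 from 15 to 9. HECW1 went from 16 to 12, and the sum over the 10 genes from 151 to 105. The most shared base was then in 13 lists at MDM4 and KLHL28 and in 11 at MCPH1, as before, and in 13 instead of 14 at USP54.

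Folds were in part higher at the genes with a shared site. Median folds over all PC3 DM peaks of a gene were 6.72 at MDM4, 6.06 at MCPH1, 5.85 at USP54, 5.68 at EIF2AK4 and 5.61 at KLHL28. They were 5.29 at LRRTM3, 5.16 at WWC2, 5.13 at HECW1, 5.08 at KAT6B and 4.82 at SIK3. Highest single folds did not follow this order: they were 14.6 at WWC2, 13.8 at USP54 and 12.6 at KAT6B, against 10.0 at MDM4. The genes were not chosen on fold, but the peaks come from the lists that chose them, so these values are a description.

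Covered length was small against gene length. In the 16 PC3 DM libraries HECW1 had 270 to 3190 bp covered (median 1480), KAT6B 0 to 2590 bp (median 883), WWC2 0 to 1285 bp (median 731.5) and USP54 225 to 2435 bp (median 667.5). MCPH1 had 262 to 1676 bp (median 667), LRRTM3 0 to 2016 bp (median 615.5) and EIF2AK4 0 to 894 bp (median 399). MDM4 had 0 to 1481 bp (median 386), SIK3 0 to 1069 bp (median 298.5) and KLHL28 0 to 1272 bp (median 282). Every median in COLO320 DM was 0 bp, and the ranges of the lines overlapped at all 10 genes.

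The genes were set beside their flanks to see whether the coverage reached beyond them. Covered bp per kb was divided by the mean over gene regions in the same list, so that 1 is the list's own average. In PC3 DM, MDM4 stood at 4.25 ± 3.61 (SD, n = 16) and the 500 kb on each side of it at 0.921 ± 0.314. For EIF2AK4 these values were 1.49 ± 0.909 and 0.678 ± 0.293, and for MCPH1 1.26 ± 0.729 and 0.441 ± 0.243. With 2 kb on each side, these 3 genes were more densely covered than their surroundings in the mean. All members were chosen for recurrent PC3 DM peaks in these same regions, while the flanks were not. A higher value in a gene than beside it is therefore in part fixed by the choice. Only at MCPH1 was the difference larger than the SD of either value. Gene and flank values come from the same libraries, and the SDs here and below are not those of the differences within libraries. Whether gene and flanks differ was not tested. The MCPH1 value includes the shared site outside the gene, as 16 of its 36 PC3 DM peaks lay beyond its upper end. At MDM4 the medians were 3.29 and 0.971.

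The means had the reverse order at KAT6B, with 1.64 ± 0.699 in the gene and 4.05 ± 1.38 beside it, and at LRRTM3, with 1.63 ± 0.858 and 2.77 ± 0.510, both beyond the SD. They also had it at KLHL28, with 3.13 ± 2.60 and 4.76 ± 1.67, within the SD. USP54 (2.31 ± 1.03 and 2.65 ± 0.929), HECW1 (1.26 ± 0.530 and 1.25 ± 0.303), SIK3 (0.603 ± 0.412 and 0.536 ± 0.290) and WWC2 (1.24 ± 1.11 and 1.02 ± 0.455) differed from their surroundings by less than the SD. The median over all genes was 0.406 in PC3 DM and 0.0526 in COLO320 DM.

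COLO320 DM lists were not empty around these genes. Beside MDM4 the COLO320 DM density was 0.313 ± 0.197 (SD, n = 18), beside LRRTM3 1.82 ± 0.462 and beside KLHL28 2.15 ± 0.601. Beside WWC2 it was 1.87 ± 0.590, above the PC3 DM value of 1.02 ± 0.455 for the same flanks, whereas beside the other 9 genes the PC3 DM mean was the higher. The COLO320 DM density was lowest beside MCPH1 (0.214 ± 0.168), EIF2AK4 (0.246 ± 0.203) and SIK3 (0.262 ± 0.183). For each gene, 14 to 18 of the 18 COLO320 DM lists had some peak in these surroundings. With 500 kb on each side they are longer than any of the genes, so these list counts cannot be set against those at the genes.

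**Figure D5:**
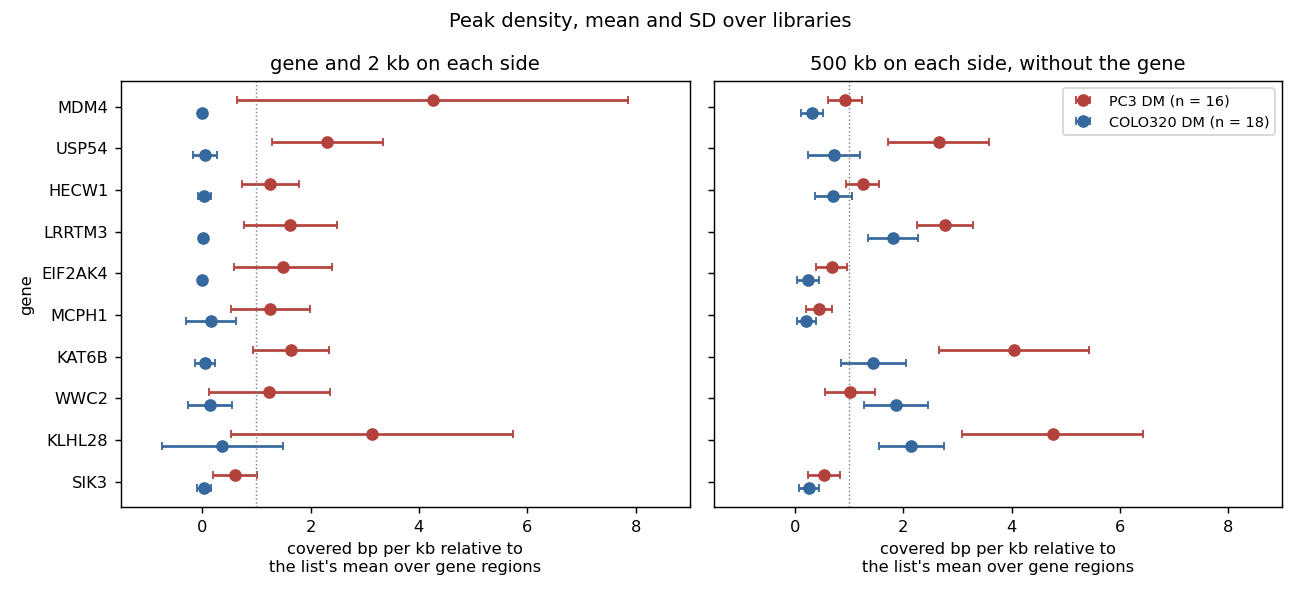
Covered bp per kb relative to the list's mean over gene regions (dotted line at 1), as mean and SD over the 16 PC3 DM (red) and 18 COLO320 DM (blue) libraries, in each gene with 2 kb on each side (left) and in 500 kb on each side without it (right). MDM4 is at 4.25 in the gene and 0.921 beside it in PC3 DM, and WWC2 is the gene whose flanks are higher in COLO320 DM.

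Neighbouring genes had peaks in fewer PC3 DM lists in most cases. This follows largely from the choice of the members for recurrent PC3 DM peaks, since the median over all genes was 2 PC3 DM lists. The counts were also not adjusted for gene length. The nearest genes to MDM4, LOC124904584 and LRRN2, had a peak in 1 PC3 DM list each. Next to USP54, MYOZ1 had 1 and PPP3CB, a calcineurin subunit, had 12 PC3 DM lists and 1 COLO320 DM list, with no base in more than 1 list. Several neighbours were marked in PC3 DM and in few or no COLO320 DM lists: GPR176, below EIF2AK4, had 10 and 2, DUSP29, above KAT6B, had 8 and 0, and PRPF39, above KLHL28, had 7 and 0. REEP3, the nearest gene below LRRTM3 without overlap, had 13 and 0 but lies 3300908 bp away. CTNNA3, which surrounds LRRTM3, had 16 and 18. ADK, an adenosine kinase below KAT6B, had peaks in 16 lists of each line and a base in 16 PC3 DM lists. The genes most like MDM4 in which of the 34 lists had a peak were USP54, with 32 lists matching, and HECW1 and SND1, with 31 each. Those most like USP54 were LRRTM3, HECW1 and ZNF827, with 33 each. These matches hold the contrast of the lines that chose the members.

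Close relatives of the members were also counted. Of 14 close family members, 9 could be tested for presence between the lines and none was called in either direction, where 5.74% of all tested genes were called more often in PC3 DM, so with 9 genes a count of 0 is near the background. MDM2, the partner of MDM4, had peaks in 3 PC3 DM lists and 1 COLO320 DM list. KAT6A had 7 and 4, EIF2AK3 had 5 and 2 and SIK2 had 7 and 2. HECW2 had 15 and 18 and LRRTM4 16 and 16, so both were marked in both lines. Gene lengths differ, and these counts were not adjusted for them. LRRTM4 and HECW2 are the longest of the 14 genes, and the shortest, LRRTM2 and SIK1, had no peak in any list. The medians over the 14 genes were 5.5 PC3 DM and 2 COLO320 DM lists, against 2 and 1 over all genes, and none of the 14 had a base in 8 or more PC3 DM lists.

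Whether the plasmids changed the mark at these genes was asked within PC3 DM, a contrast that did not choose them. Covered length per gene was compared over 9198 genes with a peak in at least 3 PC3 DM libraries. Between the 14 perturbed and the 2 vector libraries no gene passed (0% called, two-sided exact permutation test with Benjamini-Hochberg adjustment), and 66 genes had an unadjusted p under 0.05. The smallest p that the design allows is 0.0167, and 3066 genes would have to reach it for any to pass. A change at a few genes cannot pass this test.

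MCPH1 had 1676 and 1272 bp covered in the vector libraries and 262 to 1256 bp in the perturbed ones. The vector libraries were the highest, the groups did not overlap, and the means were 1474 ± 286 bp (SD, n = 2) and 632 ± 331 bp (SD, n = 14). The difference of -842 bp had the smallest exact permutation p, 0.0167, which 31 of the 9198 genes reached, and an adjusted p of 1. It was -286 bp with peaks of −log10 q of at least 5 (exact permutation p = 0.233), -282 bp with equal lists (exact permutation p = 0.0833) and -492 bp without flanks (exact permutation p = 0.133). The shared site was present in both vector libraries, in 12 of the 14 perturbed ones and with every plasmid.

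EIF2AK4 had 0 and 167 bp in the vector libraries and 0 to 894 bp in the perturbed ones, a difference of 347 bp (exact permutation p = 0.05, adjusted p = 1). MDM4 had 1481 and 415 bp against 0 to 973 bp, a difference of -568 bp (exact permutation p = 0.1, adjusted p = 1). Without vector replicate 1 the MDM4 difference was -35.0 bp. In both genes the groups overlapped. For the other 7 genes the exact permutation p ran from 0.35 at WWC2 to 0.85 at USP54. Covered length was higher on average with perturbation at 6 of the 10 genes, against 61.1% of all genes tested.

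The combination was compared with the 11 libraries of single plasmids in the same way, and no gene passed (0% called, 271 with an unadjusted p under 0.05, two-sided exact permutation test). The smallest exact permutation p possible here is 0.00549, which 33 genes reached, and 1011 would have to reach it for any to pass. A change at a few genes cannot pass this test either. EIF2AK4 came nearest, with 277 to 894 bp in the 3 combination libraries and 0 to 563 bp in the single ones (means 617 ± 313 and 380 ± 178 bp, exact permutation p = 0.115, adjusted p = 1). The difference of 236 bp was 97.7 bp without ecSEcombo replicate 1 (exact permutation p = 0.538) and 406 bp without ecSEcombo replicate 3 (exact permutation p = 0.0256), and it turned to -0.222 bp per Mb when scaled by the list's coverage. KLHL28 and SIK3 had lower means with the combination and the other 8 genes higher ones, against 63.4% of all genes with higher ones. The combination group holds the longest PC3 DM list, ecSEcombo replicate 1, and without it 71 genes instead of 271 had an unadjusted p under 0.05.

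Over the 6 plasmids of PC3 DM no gene passed either (0% called, permutation test with 100000 resamples), with 264 genes at an unadjusted p under 0.05 and 0.644 as the smallest adjusted p. Among the 10 genes p ran from 0.190 at MCPH1 to 0.914 at KAT6B, all with an adjusted p of 1. Group means of MCPH1 were 1474 bp with the vector, 625 bp with ecSE1, 708 bp with ecSE2, 614 bp with ecSE6, 468.5 bp with ecSE7 and 689 bp with the combination. At MDM4 the means were 948, 459, 344, 351, 226.5 and 469 bp in the same order, and the vector libraries themselves had 1481 and 415 bp. Every plasmid group of PC3 DM had a peak at every one of the 10 genes in at least 1 library. The genes were chosen for peaks that recur in PC3 DM lists, which left little room for an empty group. No difference between plasmids at these genes passed the adjusted test.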

How the data were processed

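CUT&Tag was run on 34 libraries, each deposited as 1 peak list on hg38. MACS2 2.2.7.1, bedtools, SAMtools, Bowtie2 2.3.5 and Trim Galore 0.6.6 are named in the submitters' processing notes. Peak names differ by library, so calls were made per library. The authors' score in the deposited lists was not used. The fold is the authors' ratio of summit to local background with 1 fragment added to each, so at a low background it also depends on depth. The −log10 p and −log10 q are the authors' values per peak. Summit fragments and local background were recovered from fold and p as the whole number fitting within 0.0005 in −log10 p. Peaks on autosomes and the X chromosome were overlapped with RefSeq genes and 2 kb on each side. Depth is unknown, so no counting intervals are given.

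Covered bp was compared with two-sided exact permutation tests, or 100000 resamples over 6 groups, on genes with peaks in 3 or more PC3 DM libraries, with Benjamini-Hochberg adjustment at 0.05. Presence between lines used Fisher's exact test. Groups and replicate numbers came from the titles. The members, the lists and the tests were chosen with earlier results of these data known. Named genes were the members, overlapping and nearest genes, 14 close relatives and the 3 genes most like MDM4 and USP54. The 3 other genes of the same pattern with a shared base, and the members given for each test, were named after their values were seen. Alternatives were peaks with −log10 q of at least 5, equal lists, 500 bp covered, no flanks, 1 kb bins, coverage per list, a replicate block and leaving out replicates or lists of over 100000 peaks. Scripts were tested on simulated data. Python 3.11.15, numpy 2.4.6, pandas 2.3.3 and scipy 1.17.1 were used.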

Additional observations from a re-analysis of the deposited data

How the results depend on the processing

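The pairs of gene and list with a peak depended on what was counted. Of 151 in PC3 DM, 85 remained when 500 bp had to be covered. Of 14 in COLO320 DM, 9 remained with −log10 q of at least 5, 3 with equal lists, 7 with 500 bp covered and 6 without lists of over 100000 peaks, a setting added after seeing the data. Genes with a base in 8 or more PC3 DM lists were 4 with each peak filter and 5 in 1 kb bins, where HECW1 reached 8 lists. The count of genes called was 0 in all 3 PC3 DM comparisons under every setting run, leaving out each replicate and the replicate block included. In the main setting 3066 genes between perturbed and vector, and 1011 for the combination, would have to reach the smallest p for any to pass. For these comparisons a count of 0 was close to fixed by the design and does not show that no gene changed. With the replicate block the unadjusted count under 0.05 was 0 between perturbed and vector, where the smallest exact permutation p was 0.0556. It was 212 for the combination. Without either vector library that count was 0 instead of 66, since the smallest p was then 0.133. For the combination it was 62 with equal lists, 121 per Mb covered, 71 without ecSEcombo replicate 1 and 175 without ecSEcombo replicate 2. Same-numbered libraries had a median correlation of deviations of -0.0645 (-0.342 to 0.321), and 6 of 16 correlated best with their own number, so the numbers were not taken to pair the libraries. EIF2AK4 in the combination turned from a difference of 236 bp to -0.222 bp per Mb covered by the list. Depth is unknown, so an absent peak does not show an absent mark.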
